A study of Mus musculus with 6 samples.

Results

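Wnt proteins are secreted ligands that cells receive through Frizzled receptors, and 52 genes of this pathway were measured here in muscle satellite cells (SCs) that lack or carry *Slug*. The genes were taken by symbol from the annotation of the array: every *Wnt*, *Fzd*, *Sfrp*, *Dkk* and *Rspo* gene, and the co-receptors, cytoplasmic relay genes and nuclear factors named below. They made up 52 of the 22180 genes with a probe set that carries only 1 symbol, as 19 ligands, 10 receptors, 4 co-receptors, 8 secreted inhibitors, 4 secreted enhancers, 4 relay genes and 3 nuclear factors. *Tcf7* was not analysed here.

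When a canonical Wnt ligand binds a Frizzled receptor and the co-receptor Lrp5 or Lrp6, the complex of Axin and Apc that marks beta-catenin for breakdown is held back, and beta-catenin enters the nucleus and acts on genes bound by Tcf and Lef factors. Sfrp and Dkk proteins block the ligand or the co-receptor, R-spondins keep receptors at the cell surface, and Ror1 and Ror2 carry signals that do not use beta-catenin. In muscle, Wnt proteins are known to act on SCs, the stem cells that lie quiescent under the basal lamina of the myofibre, during quiescence, activation and repair.

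The *Slug*-/- group held 3 samples of SCs from adult male C57BL6 mice deficient in *Slug*, the gene also called *Snai2*, and the *Slug*+/+ group held 3 samples of SCs from adult male wild-type mice of that strain. SCs of both groups were sorted from resting hindlimb muscle by flow cytometry as cells with CD34 and integrin α7 at the surface and without CD45, Sca1, CD11b and CD31, and RNA was taken with no step of culture. Each sample was read on 1 Affymetrix whole-transcript array, and all values below are the authors' log2 expression values. The deletion was present throughout the body of these mice and not only in SCs.

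*Snai2* was at 5.15, 5.10 and 4.59 on the 3 *Slug*-/- arrays, against 6.25, 6.66 and 6.53 on the *Slug*+/+ arrays (log2 difference -1.53, adjusted p = 0.435 from limma), and the sources used here do not say whether its probes lie in the deleted part. All 11 SC markers lay above the background guide described below, and their mean level was 8.23 to 8.52 on *Slug*-/- arrays and 8.15 to 8.58 on *Slug*+/+ arrays. Markers of other cell types were also above it, as 9 of 11 for fibro-adipogenic progenitors, 9 of 10 for smooth muscle and pericytes, 5 of 10 for endothelium, 2 of 10 for blood, 4 of 6 for Schwann cells, 4 of 6 for tendon and 9 of 14 for differentiating muscle. *Pdgfra* and *Ptprc*, markers of fibro-adipogenic progenitors and of blood cells, were under it on all 6 arrays. Other markers of these lists were well above it. *Dcn* averaged 10.21 in *Slug*-/- and 10.31 in *Slug*+/+ samples, *Dpt* 10.85 and 10.93, and *Cd68* 5.50 and 6.46. The endothelial marker *Pecam1* was above it on all 6 arrays, with means of 3.74 and 3.59. The mean level of the fibro-adipogenic list was 5.73 to 6.03 on *Slug*-/- arrays and 5.78 to 6.01 on *Slug*+/+ arrays, and that of the smooth muscle list was 5.62 to 5.84 on *Slug*-/- arrays and 5.22 to 5.68 on *Slug*+/+ arrays. Array medians over all genes were 3.16 to 3.20 in *Slug*-/- and 3.20 to 3.25 in *Slug*+/+ samples. Of 7 cycling cell markers, 4 were higher in *Slug*-/- SCs at an unadjusted p under 0.05 from limma (*Mki67*, *Cdk1*, *Top2a* and *Ccna2*), against 3.31% of all genes, and the mean over the list was 3.59 to 3.94 on *Slug*-/- arrays and 2.55 to 2.99 on *Slug*+/+ arrays. In the other marker lists, *Myog* (difference 2.29), *Lum* (1.05), *Tagln* (0.87) and *Emcn* (0.74) were higher and *Cd68* (-0.96), *Cd248* (-0.87) and *Atp2a1* (-0.66) lower at that p. *Emcn* was under the guide on all 6 arrays, and the genotypes overlapped for *Lum*, *Emcn* and *Atp2a1*. These are single markers. The median differences were 0.06 for differentiating muscle, -0.04 for fibro-adipogenic progenitors, 0.02 for endothelium, 0.17 for smooth muscle and -0.18 for blood. The part of other cell types and of cycling transcripts in the values of the Wnt genes was not tested.

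An array gives a value for every probe set, also where the RNA is absent, so the 1105 olfactory receptor genes on the array were used as a guide to background. The 95th percentile of their values over the 6 arrays was 3.19. A gene counts below as above the guide if it exceeded 3.19 on all 3 arrays of at least 1 genotype. By this measure 24 of the 52 Wnt genes were above the guide, 21 of them on all 6 arrays, while 16 were under it on all 6. Of all genes, 47.3% were above it.

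By role, all 4 co-receptors (*Lrp5*, *Lrp6*, *Ror1* and *Ror2*) and all 4 relay genes (*Ctnnb1*, *Axin1*, *Axin2* and *Apc*) were above the guide, as were 6 of 10 Frizzled receptors (*Fzd1*, *Fzd4*, *Fzd5*, *Fzd7*, *Fzd8* and *Fzd9*). Of the nuclear factors, *Tcf7l1* and *Tcf7l2* passed and *Lef1* did not. Among 19 ligands only *Wnt2b*, *Wnt4*, *Wnt5b* and *Wnt9a* were above it, and *Wnt5b* cleared it by little, at 3.22, 3.23 and 3.05 in *Slug*-/- SCs and 3.20, 3.33 and 3.19 in *Slug*+/+ SCs. *Dkk3*, *Sfrp4* and *Sfrp5* were the inhibitors above it, and *Rspo1* the only R-spondin. On single arrays, 25, 28 and 24 Wnt genes exceeded the guide in *Slug*-/- SCs, against 32, 28 and 27 in *Slug*+/+ SCs, and both genotypes had an array with 28.

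**Figure D1:**
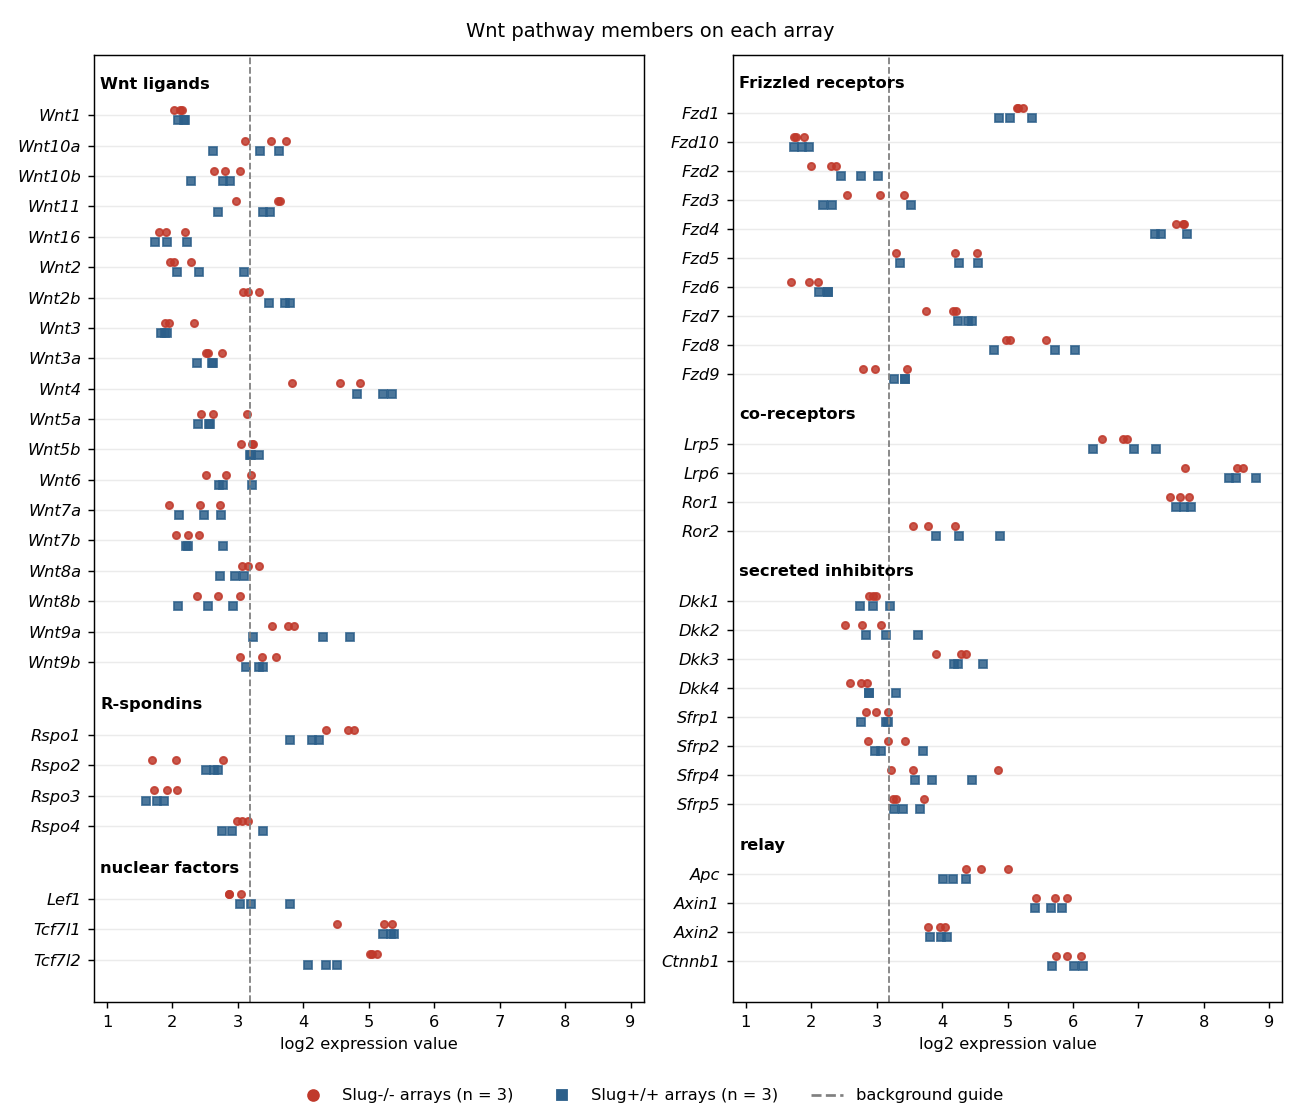
Log2 expression values (x axis) of the 52 Wnt pathway genes (y axis), grouped by role. Each point is 1 array, with *Slug*-/- above *Slug*+/+ for each gene, and the dashed line marks the background guide of 3.19. Most ligands lie at or under the line, while all co-receptors and relay genes lie above it.

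The comparison of *Slug*-/- with *Slug*+/+ SCs asked which of these genes changed in resting SCs when *Slug* was lost. *Tcf7l2* and *Rspo1* had higher values in *Slug*-/- SCs, and *Wnt4*, *Wnt2b* and *Fzd2* had lower values, each at an unadjusted p under 0.05 from limma. Of 52 genes, the 2 higher ones were 3.85%, against 3.31% of all genes tested, and the 3 lower ones were 5.77%, against 2.49%. In both directions together this was 5 of 52 (9.62%), against 5.80% of all genes. None of the 52 passed a 2-fold difference together with an unadjusted p under 0.05, which 0.897% of all genes did, and the largest fold was 1.69. No Wnt gene passed an adjusted p of 0.05 from limma, and 0.00% of all genes did. The smallest adjusted p was 0.726 among the 52 and 0.435 among all genes. The labels call the replicates biological but do not say whether each sample came from its own mouse, so these p-values measure the spread between these samples.

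Over all 52 Wnt genes, the median log2 difference was -0.05, against -0.01 over all genes, and the median size of the difference was 0.18 in both. Within a genotype, the median SD of a Wnt gene was 0.22 in *Slug*-/- and 0.24 in *Slug*+/+ samples. These SDs are of single arrays, whereas the difference is between means of 3 arrays, so the values are not on the same scale. Differences were negative for 33 genes and positive for 19, a share of 63.5% negative against 51.6% of all genes. This share was 51.9% (27 genes), against 44.1% of all genes, when each array's median was subtracted first, and 59.6% (31 genes), against 50.4%, after quantile normalization.

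Groups of 3 arrays that did not overlap were found for 7 genes. *Rspo1* and *Tcf7l2* were higher on every *Slug*-/- array than on any *Slug*+/+ array (3.85% of 52, against 5.24% of all genes). *Dkk4*, *Fzd2*, *Fzd6*, *Fzd7* and *Wnt2b* were lower on every *Slug*-/- array (9.62% of 52, against 5.40% of all genes).

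*Tcf7l2* encodes Tcf4, a factor that binds DNA and recruits beta-catenin to its target genes. It was at 5.13, 5.05 and 5.02 on the *Slug*-/- arrays, against 4.07, 4.51 and 4.34 on the *Slug*+/+ arrays. The *Slug*-/- arrays were close to each other and all lay above the *Slug*+/+ arrays, which varied more. The log2 difference was 0.76 (standard error 0.18, 95% interval 0.34 to 1.18, n = 3 each), a 1.69-fold higher value, with an unadjusted p of 0.00332 and an adjusted p of 0.726 from limma. In bulk RNA such a difference cannot tell a change in RNA per cell from a change in the share of cells that carry it, and this holds for each gene below. The unadjusted p stayed under 0.05 in all 13 alternative settings, from 0.00237 to 0.0132, with a difference of 0.64 to 0.86.

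The other nuclear factors had negative differences. *Tcf7l1*, which encodes Tcf3, most often a repressor of Wnt target genes, averaged 5.03 ± 0.46 in *Slug*-/- and 5.31 ± 0.08 in *Slug*+/+ SCs (SD, n = 3 each), a difference of -0.28 that did not pass the test (adjusted p = 0.932 from limma) and was -0.02 without *Slug*-/- replicate 2. *Lef1* was at 2.86, 2.86 and 3.05 in *Slug*-/- SCs and at 3.20, 3.80 and 3.04 in *Slug*+/+ SCs. Its groups overlapped near the background guide, with a difference of -0.42 (95% interval -0.96 to 0.12) that was -0.20 without *Slug*+/+ replicate 2.

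*Rspo1* encodes R-spondin 1, a secreted protein that binds Lgr receptors and raises the response to Wnt ligands. It was at 4.34, 4.77 and 4.69 on the *Slug*-/- arrays, against 4.24, 4.13 and 3.80 on the *Slug*+/+ arrays. The lowest *Slug*-/- value was only slightly above the highest *Slug*+/+ value. The log2 difference was 0.54 (standard error 0.20, 95% interval 0.07 to 1.02), or 1.46-fold, with an unadjusted p of 0.0299 and an adjusted p of 0.826 from limma. The unadjusted p was over 0.05 without *Slug*-/- replicate 2 or 3 or *Slug*+/+ replicate 2 or 3, where the difference was 0.42 to 0.58. The other R-spondins, *Rspo2*, *Rspo3* and *Rspo4*, were not above the guide, and their differences were -0.44, 0.16 and 0.06. That of *Rspo2* was -0.74, at an unadjusted p under 0.05, without *Slug*-/- replicate 2.

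*Wnt4* encodes a ligand that signals by either branch depending on the cell. It was at 4.56, 4.86 and 3.83 on the *Slug*-/- arrays, against 5.35, 5.21 and 4.82 on the *Slug*+/+ arrays. *Slug*-/- replicate 3 was far under the others, and *Slug*-/- replicate 2 was above *Slug*+/+ replicate 3, so the groups overlapped. The log2 difference was -0.71 (standard error 0.29, 95% interval -1.39 to -0.03), a value 1.64-fold lower in *Slug*-/- SCs, with an unadjusted p of 0.0431 and an adjusted p of 0.858 from limma. Without *Slug*-/- replicate 3 the difference was -0.42 and its unadjusted p was 0.131. Leaving out *Slug*-/- replicate 1 or *Slug*+/+ replicate 1 or 2 also took the p over 0.05, at differences of -0.78, -0.60 and -0.67.

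*Wnt2b*, a ligand of the beta-catenin branch, was at 3.08, 3.16 and 3.32 on the *Slug*-/- arrays, against 3.72, 3.80 and 3.47 on the *Slug*+/+ arrays. The groups did not overlap, and 1 of the *Slug*-/- arrays but all 3 *Slug*+/+ arrays exceeded the guide. Its log2 difference was -0.48 (standard error 0.18, 95% interval -0.89 to -0.07, unadjusted p = 0.0279, adjusted p = 0.825 from limma). The unadjusted p was over 0.05 without replicate 1 or replicate 2 of either genotype, with differences of -0.41 to -0.46.

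Of the other ligands above the guide, *Wnt9a* was at 3.52, 3.77 and 3.85 in *Slug*-/- SCs and at 4.71, 4.30 and 3.23 in *Slug*+/+ SCs. The *Slug*+/+ arrays spanned the whole *Slug*-/- range, and its difference of -0.37 did not pass the test (adjusted p = 0.936 from limma). Leaving out *Slug*+/+ replicate 3 gave -0.79, at an unadjusted p under 0.05, and leaving out *Slug*+/+ replicate 1 gave -0.05. The remaining 15 ligands, none above the guide, differed by -0.43 (*Wnt2*) to 0.26 (*Wnt10a* and *Wnt8a*), and *Wnt2* was at -0.65, with an unadjusted p under 0.05, without *Slug*+/+ replicate 3. *Wnt7a*, a ligand known to act on SCs in muscle repair, averaged 2.36 ± 0.40 in *Slug*-/- and 2.44 ± 0.32 in *Slug*+/+ SCs (SD, n = 3 each), under the guide on all arrays. *Wnt5a*, a ligand of the branch without beta-catenin, averaged 2.73 ± 0.36 in *Slug*-/- and 2.51 ± 0.10 in *Slug*+/+ SCs.

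Some *Wnt* genes lie side by side in the genome, and 4 such pairs were among the 19 ligands. *Wnt6* and *Wnt10a* on chromosome 1 differed by -0.06 and 0.26. On chromosome 11, *Wnt3a* and *Wnt9a* differed by 0.07 and -0.37, and *Wnt9b* and *Wnt3* by 0.06 and 0.18. *Wnt10b* and *Wnt1* on chromosome 15 differed by 0.18 and -0.06. The signs were opposite within 3 of the 4 pairs, and none of these 8 ligands was at an unadjusted p under 0.05 from limma. *Wnt1*, *Wnt3*, *Wnt3a* and *Wnt10b* were under the guide on all arrays. The signs of *Wnt6*, *Wnt10a*, *Wnt3a*, *Wnt9b* and *Wnt10b* each turned in at least 1 alternative setting.

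**Figure D2:**
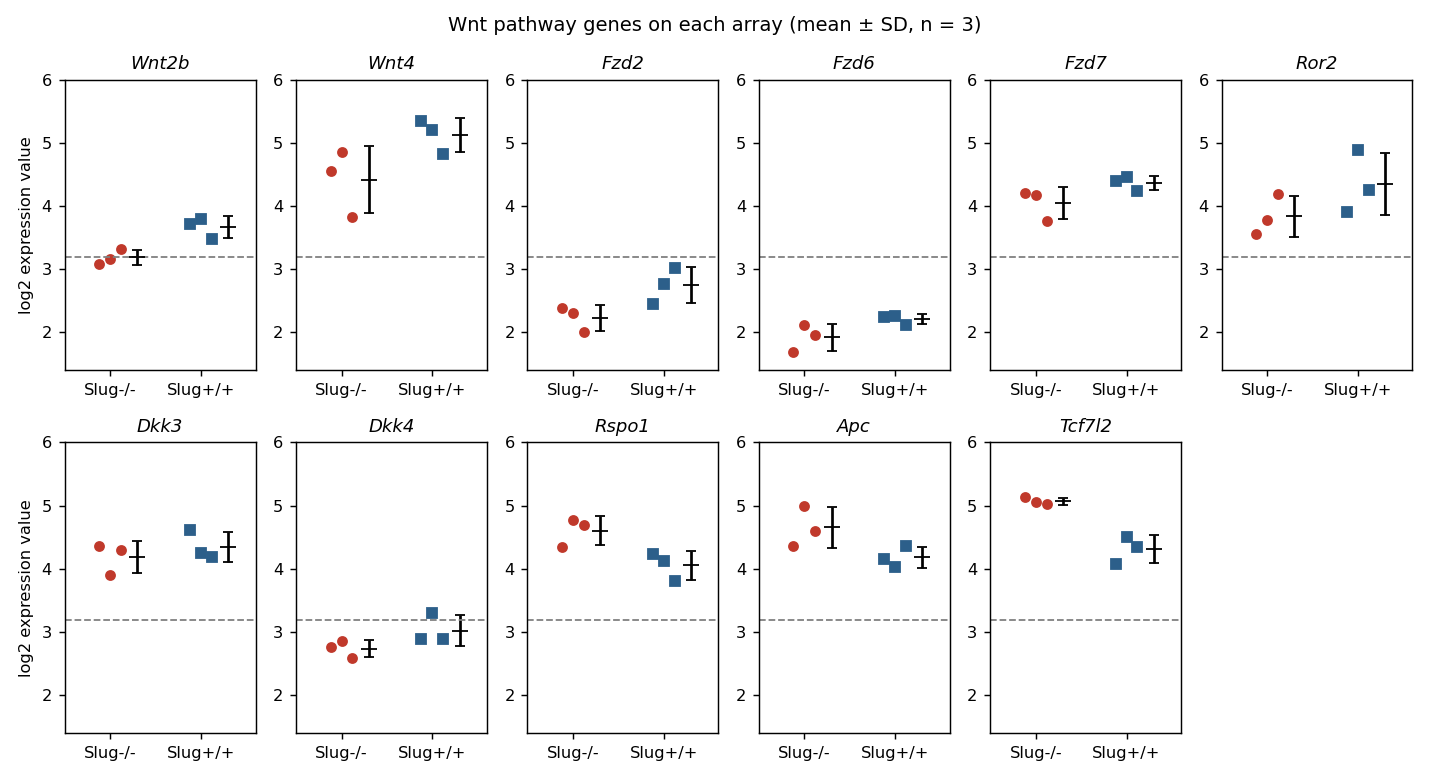
Log2 expression values (y axis) on each array for 11 Wnt pathway genes, with *Slug*-/- left of *Slug*+/+. Points are arrays, the bar is the mean and the whisker is 1 SD (n = 3), and the dashed line is the background guide of 3.19. *Tcf7l2* and *Rspo1* show *Slug*-/- points above every *Slug*+/+ point, and *Wnt4* shows overlap.

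Frizzled receptors had negative differences in 7 of 10 cases. This count was 6 with array medians subtracted, 5 without *Slug*+/+ replicate 2 and 8 without *Slug*+/+ replicate 3. *Fzd2* was at 2.38, 2.30 and 2.0 in *Slug*-/- SCs and at 2.45, 2.76 and 3.02 in *Slug*+/+ SCs. It did not overlap between the groups but lay under the guide on all 6 arrays, so its difference of -0.52 (standard error 0.21, unadjusted p = 0.0423, adjusted p = 0.858 from limma) was measured among values in the range of background. Without *Slug*-/- replicate 2 or 3 or *Slug*+/+ replicate 2 or 3 its unadjusted p was over 0.05, with differences of -0.38 to -0.55. *Fzd6* was under the guide as well, at 1.69, 2.11 and 1.96 in *Slug*-/- SCs and 2.25, 2.26 and 2.12 in *Slug*+/+ SCs.

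*Fzd7*, known as a receptor for Wnt7a on SCs, was above the guide on all 6 arrays. It was at 4.21, 4.17 and 3.76 in *Slug*-/- SCs, against 4.40, 4.46 and 4.24 in *Slug*+/+ SCs. The groups lay side by side with a narrow gap, and the log2 difference of -0.32 (95% interval -0.76 to 0.13, unadjusted p = 0.136, adjusted p = 0.905 from limma) did not pass the test and was -0.17 without *Slug*-/- replicate 3. *Fzd4* averaged 7.65 ± 0.06 in *Slug*-/- and 7.45 ± 0.26 in *Slug*+/+ SCs (SD, n = 3 each), a difference of 0.20. *Fzd1* differed by 0.09 and *Fzd8* by -0.31, and both had overlapping groups. For *Fzd8*, leaving out *Slug*+/+ replicate 3 gave -0.68, at an unadjusted p under 0.05, and leaving out *Slug*+/+ replicate 2 gave -0.06. The difference of *Fzd9* was -0.30, and -0.49 at an unadjusted p under 0.05 without *Slug*-/- replicate 3.

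The 4 co-receptors all had negative differences, and these kept their sign when array medians were subtracted or quantile normalization was applied. *Ror2*, a receptor kinase for Wnt5a, was at 3.55, 3.78 and 4.19 in *Slug*-/- SCs and at 3.90, 4.88 and 4.26 in *Slug*+/+ SCs. The groups overlapped, and the log2 difference of -0.50 did not pass the test (95% interval -1.18 to 0.17, adjusted p = 0.904 from limma). Its unadjusted p was under 0.05 only without *Slug*+/+ replicate 1, where the difference was -0.73, and the difference was -0.24 without *Slug*+/+ replicate 2. *Ror1*, *Lrp5* and *Lrp6* differed by -0.07, -0.16 and -0.28. *Lrp6* averaged 8.27 ± 0.48 in *Slug*-/- and 8.55 ± 0.21 in *Slug*+/+ SCs (SD, n = 3 each), with *Slug*-/- replicate 1 the lowest array at 7.71. Without that array the *Lrp6* difference rounded to -0.00. The count of negative co-receptors was 3 of 4 when either *Slug*-/- replicate 3 or *Slug*+/+ replicate 2 was left out.

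Secreted inhibitors also had negative differences in 8 of 8 cases, from -0.42 (*Dkk2*) to -0.02 (*Dkk1*, *Sfrp1* and *Sfrp5*). The count was 5 of 8 after either of those other scalings, and also without *Slug*-/- replicate 1 or 3 or *Slug*+/+ replicate 2. Without any other single array it was 6 or 7. No inhibitor was at an unadjusted p under 0.05 from limma. *Dkk3*, a Dickkopf protein whose part in Wnt signalling is less clear than that of its relatives, was the inhibitor above the guide with the largest difference. It was at 4.36, 3.90 and 4.29 in *Slug*-/- SCs and at 4.62, 4.25 and 4.18 in *Slug*+/+ SCs, a difference of -0.17 with overlapping groups, which was -0.03 without *Slug*-/- replicate 2 or *Slug*+/+ replicate 1. *Dkk4* did not overlap, at 2.76, 2.85 and 2.59 in *Slug*-/- SCs and 2.88, 3.30 and 2.88 in *Slug*+/+ SCs. All but 1 of these values were under the guide, and the difference of -0.29 had an adjusted p of 0.908 from limma. *Sfrp4* varied widely within each genotype, with 3.55, 4.85 and 3.22 in *Slug*-/- SCs and 4.45, 3.58 and 3.84 in *Slug*+/+ SCs.

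Among relay genes, *Ctnnb1*, which encodes beta-catenin, averaged 5.93 ± 0.19 in *Slug*-/- and 5.95 ± 0.25 in *Slug*+/+ SCs (SD, n = 3 each). The interval of its difference ran from -0.49 to 0.45. *Axin2*, a scaffold of the destruction complex and itself a target gene of beta-catenin, averaged 3.93 ± 0.13 in *Slug*-/- and 3.95 ± 0.13 in *Slug*+/+ SCs, with an interval of -0.42 to 0.38. *Axin1* differed by 0.05. *Apc*, the tumour suppressor that holds the destruction complex together, was at 4.36, 5.0 and 4.60 in *Slug*-/- SCs and at 4.16, 4.02 and 4.36 in *Slug*+/+ SCs. Only *Slug*-/- replicate 1 and *Slug*+/+ replicate 3 met, and the log2 difference of 0.48 (95% interval -0.03 to 0.98) did not pass the test (unadjusted p = 0.0623, adjusted p = 0.877 from limma). The unadjusted p was under 0.05 without *Slug*-/- replicate 1 (difference 0.62) and with array medians subtracted (0.52), and the difference was 0.30 without *Slug*-/- replicate 2.

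**Figure D3:**
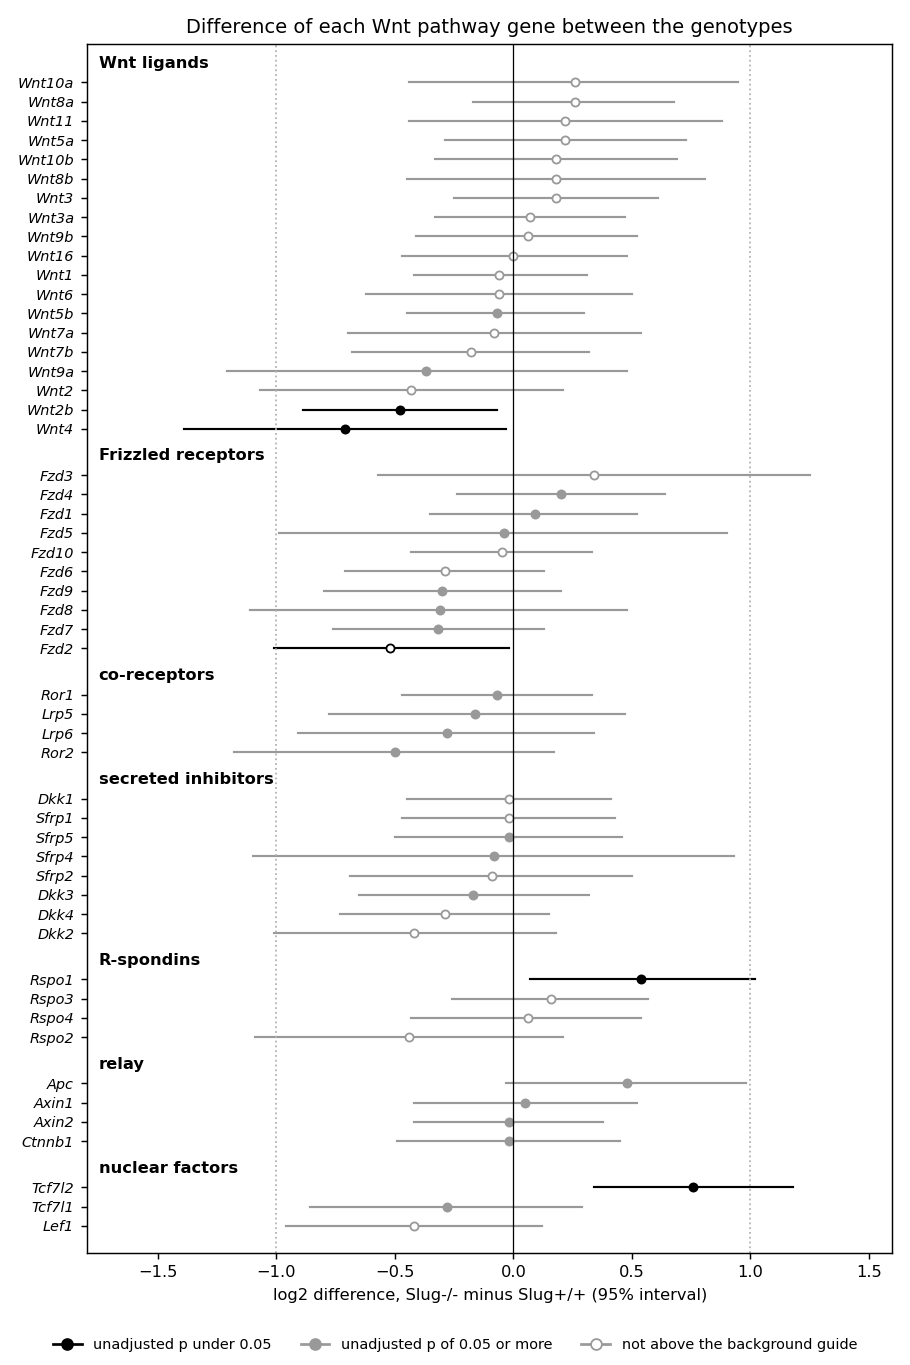
Log2 difference between *Slug*-/- and *Slug*+/+ SCs (x axis) for each of the 52 Wnt pathway genes (y axis), with 95% intervals from limma, in black where the unadjusted p was under 0.05, open points for genes not above the guide and dotted lines at a 2-fold difference. Values right of 0 are higher in *Slug*-/- SCs, and only *Tcf7l2*, *Rspo1*, *Wnt4*, *Wnt2b* and *Fzd2* have intervals that leave out 0.

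Sequence upstream of the start site was available for 34 of the 52 genes in RefSeq promoters of 300 bases (250 before to 50 after the start, GRCm38.p6). Slug is a repressor that binds E-boxes, so the letters CACCTG and their reverse complement CAGGTG were searched on both strands, and CTTTGAT or ATCAAAG for Tcf and Lef factors. An E-box of this kind stood in 9 of the 34 genes (26.5%), against 22.6% of the 27025 genes in the table. These were *Fzd5*, *Lef1*, *Sfrp5*, *Wnt10b*, *Wnt2b*, *Wnt3a*, *Wnt4*, *Wnt5b* and *Wnt9b*. Differences were negative for 6 and positive for 3 of the genes with it, and negative for 16 and positive for 9 of those without it. The Tcf and Lef letters stood in *Wnt11* and *Wnt5b* (5.88% of 34, against 4.29% of genes). A match is a run of letters and not a measured site, and *Fzd2* is named only, without a sequence.

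The 250 bases upstream of the start are shown, 5′ to 3′ on the gene's strand, for the 4 genes above the guide that were at an unadjusted p under 0.05 from limma. Capitals mark an E-box, whose first base lay at position -15 from the start in *Wnt4* and -208 in *Wnt2b*. Neither set of letters was found in the windows of *Rspo1* or *Tcf7l2*, which has a pair of promoters in the table.
Wnt4, chr4:137277385-137277634, plus strand: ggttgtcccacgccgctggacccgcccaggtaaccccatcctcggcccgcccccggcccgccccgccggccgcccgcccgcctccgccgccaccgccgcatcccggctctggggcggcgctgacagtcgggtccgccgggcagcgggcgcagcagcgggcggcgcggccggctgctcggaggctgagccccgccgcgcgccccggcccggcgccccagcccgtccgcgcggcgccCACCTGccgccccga
Wnt2b, chr3:104961710-104961959, minus strand: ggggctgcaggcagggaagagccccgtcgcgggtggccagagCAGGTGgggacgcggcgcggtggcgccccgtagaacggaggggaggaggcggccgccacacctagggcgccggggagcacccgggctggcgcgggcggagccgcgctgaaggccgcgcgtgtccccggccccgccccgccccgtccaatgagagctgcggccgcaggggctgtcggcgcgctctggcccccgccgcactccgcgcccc
Rspo1, chr4:124986180-124986429, plus strand: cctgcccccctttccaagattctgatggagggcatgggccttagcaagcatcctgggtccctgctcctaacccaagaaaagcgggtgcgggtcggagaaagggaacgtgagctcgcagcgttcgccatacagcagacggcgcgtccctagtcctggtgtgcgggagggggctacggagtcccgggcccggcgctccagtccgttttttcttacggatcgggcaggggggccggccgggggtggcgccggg
Tcf7l2 first promoter, chr19:55741560-55741809, plus strand: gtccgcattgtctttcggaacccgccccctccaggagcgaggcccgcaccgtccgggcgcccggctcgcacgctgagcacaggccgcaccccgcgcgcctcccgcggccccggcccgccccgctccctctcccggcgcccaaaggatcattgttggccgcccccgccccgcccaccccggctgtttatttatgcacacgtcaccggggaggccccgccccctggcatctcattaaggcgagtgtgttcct
Tcf7l2 second promoter, chr19:55895071-55895320, plus strand: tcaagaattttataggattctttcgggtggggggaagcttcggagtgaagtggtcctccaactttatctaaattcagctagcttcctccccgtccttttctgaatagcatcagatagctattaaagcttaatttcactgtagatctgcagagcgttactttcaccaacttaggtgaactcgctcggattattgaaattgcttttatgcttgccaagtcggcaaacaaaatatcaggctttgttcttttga
The *Wnt4* and *Wnt2b* windows had a G and C content of 85.2% and 80.8%, and that of *Rspo1* had 66.8%. The windows of *Tcf7l2* had 72.8% and 40.8%.

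Genes that act with these 52 were described from 7 lists written for the pathway, and no gene of these lists passed a 2-fold difference together with an unadjusted p under 0.05. Every adjusted p from limma among the genes named from them was 0.779 or more. Of 32 co-receptors and surface modulators, 3 were higher in *Slug*-/- SCs and 1 lower at an unadjusted p under 0.05 (12.5%, against 5.80% of all genes, with a median difference of 0.04). Most genes of each of the 7 lists were above the guide, and among all genes above it the share at that p was 9.43%. *Reck*, a membrane protein that works with Wnt7 ligands in blood vessels, was at 6.32, 6.20 and 5.85 in *Slug*-/- SCs, against 5.54, 5.06 and 5.60 in *Slug*+/+ SCs (difference 0.72, unadjusted p = 0.0123 from limma). *Igfbp4*, a secreted protein that binds insulin-like growth factors and can also block Wnt receptors, was at 6.99, 7.15 and 7.31 in *Slug*-/- SCs, against 6.60, 6.60 and 6.70 in *Slug*+/+ SCs (difference 0.52, unadjusted p = 0.0165 from limma). In both genes every *Slug*-/- array was above every *Slug*+/+ array. *Gpc4*, a heparan sulfate proteoglycan of the cell surface, was higher by 0.85. *Lypd6*, which binds Lrp6 in zebrafish, differed by -0.94, with all *Slug*-/- arrays under the guide.

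In the destruction complex list, 1 of 33 genes was at an unadjusted p under 0.05 (3.03%, against 5.80% of all genes). This was *Frat2*, which encodes a protein that binds Gsk3, at 2.78, 1.94 and 2.04 in *Slug*-/- SCs and 3.46, 3.25 and 2.79 in *Slug*+/+ SCs (difference -0.91, unadjusted p = 0.0132 from limma). Only *Slug*+/+ replicates 1 and 2 were above the guide. *Apc2* and *Dact2* differed by -0.42 and -0.30 and did not pass that threshold. The list for the secretion of Wnt proteins also held *Notum* (difference 0.02), which is not a secretion gene. Of the 11 genes in this list none was at an unadjusted p under 0.05 from limma. Differences were positive for 9 of these 11, and for 10732 of all 22180 genes. The median was 0.36, against -0.01 over all genes and 0.05 over all genes above the guide. The mean over this list was 5.88 to 5.93 on *Slug*-/- arrays, inside the range of 5.35 to 6.03 on *Slug*+/+ arrays. *Vps26a* and *Vps29*, of the retromer that recycles the Wnt carrier Wls, differed by 0.62 and 0.41, and *Vps35* of the same complex by -0.47. The groups overlapped in all 3 of these genes.

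Of 24 nuclear partners of beta-catenin, *Tle1*, a corepressor of the Groucho family, was the 1 gene at an unadjusted p under 0.05 (4.17%, against 5.80% of all genes). It was at 3.57, 3.21 and 3.74 in *Slug*-/- SCs and 2.64, 3.18 and 3.09 in *Slug*+/+ SCs, with only the *Slug*-/- arrays above the guide (difference 0.54, unadjusted p = 0.0463 from limma). *Cdc73* and *Sox7* differed by 0.70 and -0.50 with overlapping groups. The list of 24 also held the gene *Tcf4* (difference 0.18), which does not encode the Tcf4 protein of *Tcf7l2* named above.

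Of 32 transcripts known to be raised by beta-catenin signalling, 1 was at an unadjusted p under 0.05 (3.12%, against 5.80% of all genes) and the median difference was 0.02. This was *Birc5*, which encodes survivin, a protein of mitosis and cell survival, at 2.75, 2.09 and 3.32 in *Slug*-/- SCs and 1.99, 1.82 and 2.06 in *Slug*+/+ SCs (difference 0.76, unadjusted p = 0.0386 from limma). A single *Slug*-/- array exceeded the guide. *Ccnd1*, which encodes cyclin D1, was at 6.46, 6.47 and 7.87 in *Slug*-/- SCs, against 6.23, 5.60 and 6.24 in *Slug*+/+ SCs. Its groups did not overlap, *Slug*-/- replicate 3 stood far above the rest, and its difference of 0.91 had an unadjusted p of 0.0552 from limma. Beside *Birc5* and *Ccnd1*, whose products act in the cell cycle, stand the cycling cell markers given above, of which 4 of 7 were higher in *Slug*-/- SCs. *Cd44*, a receptor for hyaluronan, differed by 0.91 with overlapping groups.

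In the branches that do not use beta-catenin, 1 of 33 genes for planar cell polarity and calcium signalling was at an unadjusted p under 0.05 (3.03%, against 5.80% of all genes). *Invs*, which encodes inversin, a protein of the cilium that turns cells away from the beta-catenin branch, was at 2.63, 2.81 and 2.45 in *Slug*-/- SCs and 3.74, 3.21 and 3.34 in *Slug*+/+ SCs (difference -0.80, unadjusted p = 0.00499, adjusted p = 0.779 from limma). All *Slug*-/- arrays were under the guide and all *Slug*+/+ arrays above it. *Prkca* and *Prickle2* differed by -0.63 and 0.46 with overlapping groups. Among 15 cadherins and catenins, 1 was at an unadjusted p under 0.05 (6.67%, against 5.80% of all genes). *Cdh13*, which encodes a cadherin anchored in the membrane by a lipid, was at 6.71, 6.82 and 7.22 in *Slug*-/- SCs and 6.17, 6.22 and 6.30 in *Slug*+/+ SCs (difference 0.69, unadjusted p = 0.00789, adjusted p = 0.792 from limma). *Cdh2* and *Cdh4* differed by -0.45 and 0.40.

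**Figure D4:**
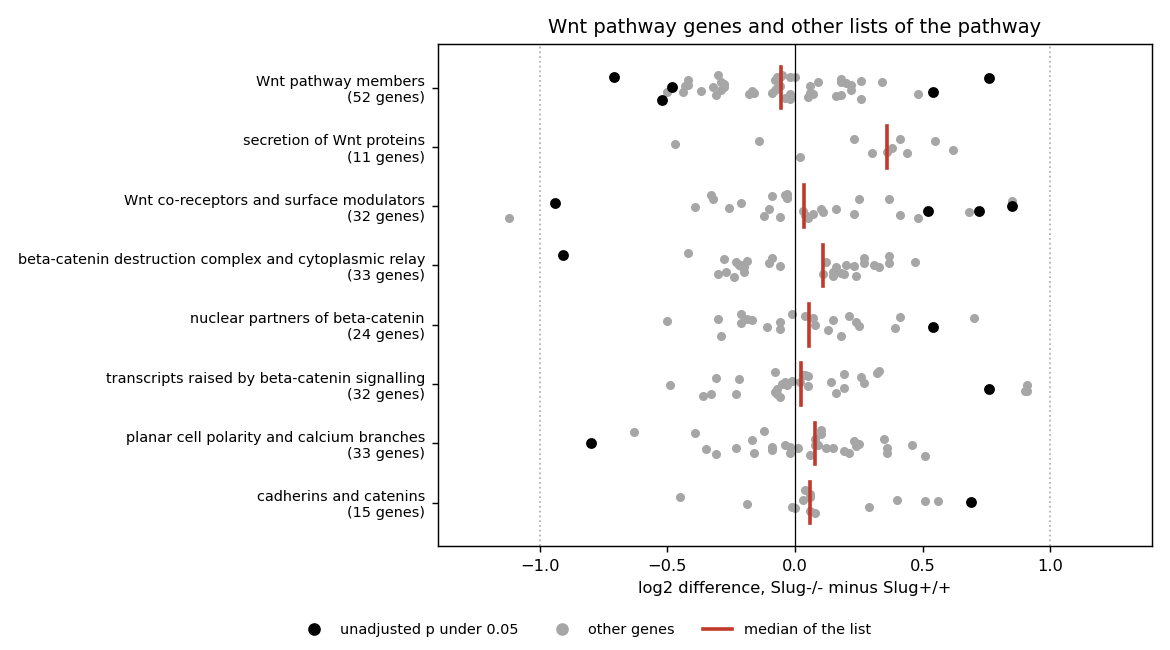
Log2 difference between *Slug*-/- and *Slug*+/+ SCs (x axis) of each gene in the 52 Wnt genes (top row) and the 7 other lists (y axis), where a point is a gene, black if at an unadjusted p under 0.05 from limma, the bar is the list's median and dotted lines mark a 2-fold difference. Medians lie between -0.05 and 0.11 except for the secretion list, at 0.36.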

How the data were processed

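RNA of sorted SCs was labelled and hybridised to Affymetrix whole-transcript mouse arrays, 1 per sample, which the authors processed in the Gene Expression Console of Affymetrix. They deposited log2 expression values for each probe set of each array. The algorithm was not given in the sources used here. Of 41345 probe sets, 23521 had 1 symbol, 1820 had several and 16004 are unnamed here, and 0 sample columns were left unused. For the 1082 genes with more than 1 such probe set, the one with the highest mean over all arrays was taken. *Slug*-/- and *Slug*+/+ arrays were compared over 22180 genes with limma 3.58.1 under R 4.3.3 (eBayes on lmFit, two-sided, Benjamini-Hochberg adjustment, prior degrees of freedom 3.57). The number of arrays limits the precision.

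The Wnt genes and all lists were chosen with earlier results of these data known. Array values were given for Wnt genes at an unadjusted p under 0.05, for those without overlap and for the largest difference of each role above the guide, and list genes were the 3 with the smallest p. Array values of *Lef1*, *Wnt5b*, *Wnt9a*, *Sfrp4*, *Fzd3* and *Fzd5*, and the list genes *Gpc4* and *Frzb*, were chosen after their values were seen. Alternatives were subtracted array medians, quantile normalization, averaged probe sets per gene, a fit of genes with a mean above the guide alone, an intensity trend, a plain unpaired test, the replicate number as a block, other percentiles for the guide and leaving out each array. The fit was tested on simulated data.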

Additional observations from a re-analysis of the deposited data

How the results depend on the processing

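Of the 5 Wnt genes at an unadjusted p under 0.05 from limma, 2 higher and 3 lower, only *Tcf7l2* stayed there in all 13 alternatives. With the fit limited to genes whose mean over the 6 arrays exceeded the guide value (28 Wnt genes, by a rule other than that behind the 24), 1 higher and 0 lower were left, 1 in all. An intensity trend gave 1 higher and 1 lower, 2 in all. The plain unpaired test left 1 lower, 3 in all, and quantile normalization 1 lower, 3 in all. The replicate number as a block gave 1 higher and 1 lower, 2 in all. The deviations of same-numbered samples from their group means correlated across genes at r of 0.0288, 0.0192 and 0.135 for replicates 1, 2 and 3. Replicate 3 had the highest r of the 9 pairs, and pairs of unlike numbers had an r of -0.0776 to 0.046. The labels state no pairing, and these r values do not establish it for any number. Leaving out 1 array at a time gave 1 to 3 higher, 0 to 5 lower and 1 to 7 in all, the total being 1 without *Slug*+/+ replicate 2 and 7 without *Slug*+/+ replicate 3. With the 99th percentile of olfactory receptor values as the guide, 11 Wnt genes in place of 24 were above it, and with the 90th percentile 35 were. No Wnt gene passed a 2-fold difference together with an unadjusted p under 0.05, or an adjusted p of 0.05, in any alternative, and the smallest adjusted p was 0.621. The sign of 24 of the 52 differences turned in at least 1 alternative and that of 28 held. Among the 11 Wnt genes chosen by rule for array values, no difference reversed its sign, while 30 of 140 verdicts weakened and 3 strengthened. The Wnt genes chosen after their values were seen are not among these 11, and of them *Fzd5* and *Sfrp4* turned sign in some alternatives. Subtracting array medians moved the median of all genes by 0.05. With 3 arrays per genotype the number of samples limits every difference, and for genes under the guide an array value cannot be told from background.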

Other observations

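*Fzd5* and *Fzd3* had a wide spread among the arrays of each genotype. This is no trait of receptors alone. Over all 52 Wnt genes and over all genes, the median SD of single arrays also exceeded the median size of the difference, which is between means of 3 arrays. *Fzd5* was at 4.54, 4.20 and 3.29 in *Slug*-/- SCs and at 4.55, 4.26 and 3.35 in *Slug*+/+ SCs, so that replicate 3 of both genotypes was the lowest. *Fzd3* was at 2.55, 3.05 and 3.42 in *Slug*-/- SCs and at 2.31, 2.18 and 3.52 in *Slug*+/+ SCs, with replicate 3 the highest in both. Its difference of 0.34 was 0.77, at an unadjusted p under 0.05 from limma, without *Slug*+/+ replicate 3. *Frzb*, which encodes a secreted Wnt inhibitor related to the Sfrp proteins, was at 2.25, 2.47 and 2.08 in *Slug*-/- SCs and at 2.11, 4.92 and 3.12 in *Slug*+/+ SCs. A single array, *Slug*+/+ replicate 2, was above the guide, and the log2 difference of -1.12 had an adjusted p of 0.901 from limma. A second probe set with 1 symbol was present for *Axin2*, *Lrp6* and *Sfrp2*, all below the guide on every array, with differences of 0.04, -0.17 and 0.01 beside -0.02, -0.28 and -0.09 for the probe sets used.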
